A study of Sus scrofa with 6 samples.

Results

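The Reelin receptors LRP8 (also called ApoER2) and VLDLR and the kinases FYN and CDK5, which act below them, were examined in cortical tissue of the embryonic pig at day 60 of gestation (E60), when the cortical surface is smooth, and at E80, when primary folds are present. A probe set, the group of short probes that reads one transcript on the Affymetrix Pig Genome Array, was taken as a member if its only gene symbol in the platform annotation was 1 of these 4 names. These are 4 of 6765 named genes, read by 6 of 23999 probe sets, with 1 for LRP8, 2 for VLDLR, 2 for FYN and 1 for CDK5. Total RNA was hybridised from 3 E60 embryos, here arrays 1, 2 and 3, and from 3 E80 embryos, here arrays 4, 5 and 6, and neither day carried a treatment or an engineered allele according to the labels. The series describes the animals as littermates without saying which array came from which litter, so that litter and day cannot be told apart, and neither breed nor sex is stated in those labels. The study also measured the same genes by qRT-PCR, and those measurements are not analysed here.

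Reelin is a large secreted glycoprotein that Cajal-Retzius cells release at the surface of the developing cortex. It binds the lipoprotein receptors VLDLR and ApoER2 on migrating neurons and on radial glial fibers, and the cytoplasmic tails of both receptors recruit the adaptor Dab1. Src family kinases, above all Fyn, phosphorylate Dab1 on tyrosines, and this step passes the signal on to Crk adaptors, phosphatidylinositol 3-kinase and, in the end, to the cytoskeleton and to cell adhesion. Cdk5 is a serine/threonine kinase that needs a neuronal activator, p35, and works alongside Reelin signalling in positioning cortical neurons. Loss of Reelin, of Dab1 or of both receptors together inverts the cortical layers in mice, and Reelin mutations cause a lissencephaly in man.

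Of the members only LRP8 passed the test, and its signal fell between E60 and E80. The signals are MAS5 values on a linear scale, and the words risen and fallen are kept for probe sets with an adjusted p under 0.05 in limma, which was fitted on log2 signals with p-values adjusted over all 23999 probe sets. By that rule 1 of the 6 member probe sets had fallen and none had risen, where 1.95% of all probe sets passed in either direction, 1.01% fell and 0.933% rose. None reached a fold of 3 without overlap between the days, a rule that 1.21% of all probe sets met. At an unadjusted p under 0.05 there were 3 of the 6, against 18% of all probe sets. The days did not overlap on 3 of the 6, 2 of them lower and 1 higher at E80, where 23.6% of all probe sets were without overlap in either direction, 14.4% lower and 9.25% higher. The mean log2 signal was lower at E80 on 3 members, and on 55.7% of all probe sets, and the median log2 difference of the 6 (E80 minus E60) was -0.08, beside -0.05 over all probe sets tested. Precision is limited by the small number of arrays.

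**Figure D1:**
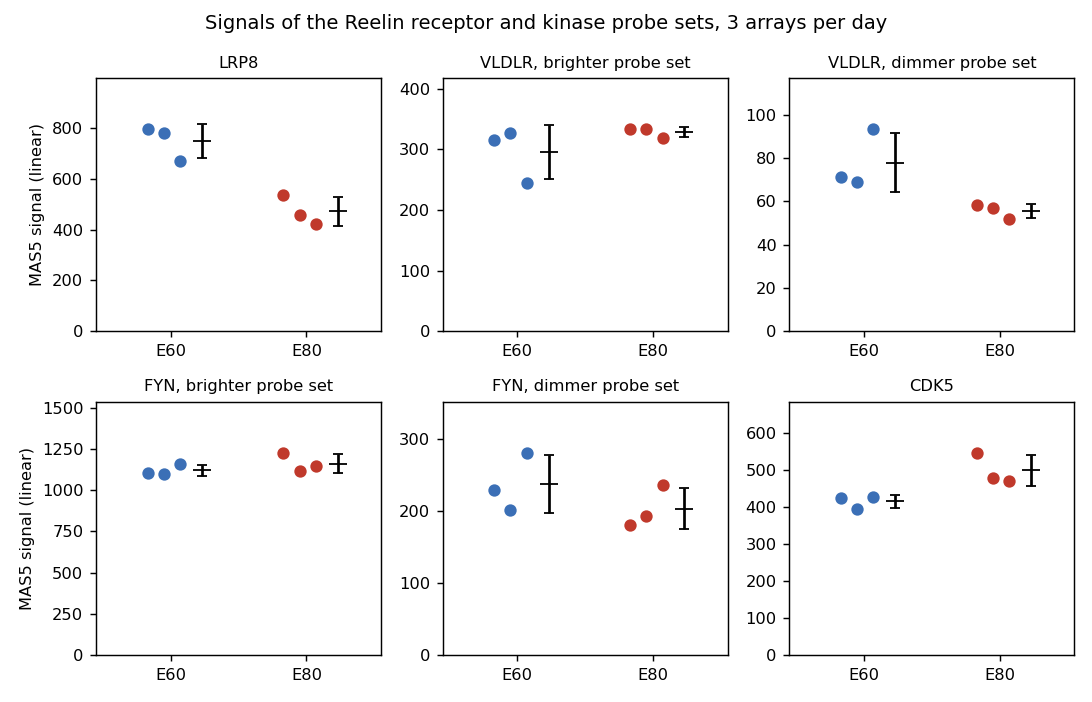
MAS5 signal on a linear axis from 0 for each of the 6 member probe sets, with 1 point per array (blue E60, red E80, arrays in order within a day) and a bar with whiskers for the mean and SD of 3 arrays. On LRP8 all E80 points lie below all E60 points, CDK5 has all E80 points higher, and the 2 probe sets of VLDLR go opposite ways.

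The 6 arrays were alike in level, and 1 of them held signal of another tissue. The median signal per array was 60.9 to 64.8 at E60 and 55.6 to 59.5 at E80, and Spearman's rho, taken over probe sets, was 0.967 to 0.984 within a day and 0.964 to 0.972 between days. Setting all array medians to a common value moved the median log2 difference of all probe sets by 0.12. Markers of neurons were bright on every array, with SNAP25, a synaptic vesicle fusion protein, at 1342 to 1494 at E60 and 1929 to 2030 at E80. Transthyretin (TTR), which defines choroid plexus epithelium, reached 4475 on array 6, against 1.47 to 15.1 on the other 5 arrays.

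LRP8, the receptor that in mammals is most abundant in neurons, was 1.59-fold lower at E80. Its signals were 797, 782 and 671 on arrays 1, 2 and 3 at E60, and 536, 459 and 425 on arrays 4, 5 and 6 at E80. The lowest array of E60 stood above the highest of E80. The mean was 750 ± 68.7 (SD, n = 3) at E60 and 473 ± 57.1 (SD, n = 3) at E80, a log2 change of -0.67 with a standard error of 0.12 and a 95% interval of -0.94 to -0.40 (adjusted p = 0.0361 from limma). Relative to the median of all probe sets the change was -0.61. By p-value LRP8 ranked 274 of 23999. Its change was moderate among the 243 probe sets that fell, whose median fold was 1.75, and 31.7% of them changed less. In whole tissue, fewer cells that express a gene and less RNA of it per cell cannot be told apart.

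The fall of LRP8 had the same sign in each of the 13 alternative settings run, from -0.55 to -0.76 on the log2 scale, but it did not pass in 7 of them. Without array 1, 2, 4, 5 or 6 the log2 differences were -0.62, -0.64, -0.76, -0.65 and -0.59, with adjusted p of 0.138, 0.150, 0.0799, 0.0687 and 0.0841 from limma, and without array 3 LRP8 passed (-0.74, adjusted p = 0.0438). It also missed the threshold with array medians set to a common value (-0.55, adjusted p = 0.0760) and without the intensity trend in the variance (adjusted p = 0.169). Calls over all probe sets dropped too, from 467 to 1 without array 1, 2 or 4. There were 367 without array 5, 200 without array 6, 419 with common medians and 0 without the trend. Why LRP8 missed the threshold in these settings was not tested. The unadjusted p of LRP8 from limma was 0.00042 with all arrays. It was 0.0025, 0.0025, 0.00042, 0.00037, 0.0019 and 0.0017 without array 1, 2, 3, 4, 5 or 6. With common medians it was 0.0025, and without the trend 0.0047.

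Markers of some other cell types were lower at E80 along with LRP8, and their lists are described here for that reason. Other lists went the opposite way. Median log2 differences were 0.26 for neurons, 0.35 for Cajal-Retzius cells, 0.76 for astrocytes, 0.37 for oligodendrocytes, 0.62 for microglia and 1.19 for choroid plexus. For interneurons the median was -0.06, for erythroid cells -0.006 and for the 1 striatum gene measured -1.22. Over the 3 measured of 8 genes listed for radial glia and progenitors the median log2 difference was -0.34, the summed signal was 4950 to 5041 at E60 and 4124 to 4624 at E80, and none of them passed the test. Vimentin (VIM), an intermediate filament of radial glia, had signals of 2050 to 2323 at E60 and 1353 to 1859 at E80. Over the 5 measured of 6 genes of fibroblasts and meninges the summed signal was 1123 to 1634 at E60 and 676 to 1169 at E80, with array 5 within the range of E60. Of these 5 genes 4 were lower and 1 higher at E80, and none passed. Over the 7 genes of endothelium the median log2 difference was -0.34, with 6 lower and 1 higher, and none passed. Their part in the change of LRP8 was not tested. Choroid plexus signal was high on array 6, and its part in the change of LRP8 was not tested either.

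VLDLR, the second Reelin receptor, gave no single answer, because its 2 probe sets differed in direction. The brighter one had signals of 315, 327 and 245 at E60 and 333, 333 and 318 at E80. The days overlapped, and array 3 was the low one. The mean was 296 ± 44.1 (SD, n = 3) at E60 and 328 ± 8.72 (SD, n = 3) at E80, a log2 difference of 0.16 with a 95% interval of -0.13 to 0.45 (adjusted p = 0.554 from limma). Without array 3 the difference was 0.03.

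The dimmer VLDLR probe set had signals of 71.4, 68.9 and 93.5 at E60 and 58.1, 56.8 and 51.7 at E80. Here all arrays of E80 lay below all of E60, with array 3 the highest of the 6. The mean was 77.9 ± 13.6 (SD, n = 3) at E60 and 55.6 ± 3.39 (SD, n = 3) at E80, a log2 difference of -0.48 with a 95% interval of -0.89 to -0.06 (unadjusted p = 0.0287, adjusted p = 0.215 from limma). The interval covers this probe set alone and is not adjusted for the number tested, so that it leaves out 0 although the probe set did not pass.

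Within an array, the log2 signal of the brighter VLDLR probe set exceeded that of the dimmer one by 1.39 to 2.25 at E60 and by 2.52 to 2.62 at E80. The mean gap differed by 0.64 between the days (exact two-sided permutation test over 20 splits of the arrays, p = 0.1, the smallest that 3 against 3 arrays allow, and 0.2 after adjustment over the 2 genes with 2 probe sets; this comparison was added after the values were seen). Which of them follows the VLDLR transcript better was not tested. The mean of both probe sets had a log2 difference of -0.16 (adjusted p = 0.503 from limma), the opposite sign to the brighter one alone.

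**Figure D2:**
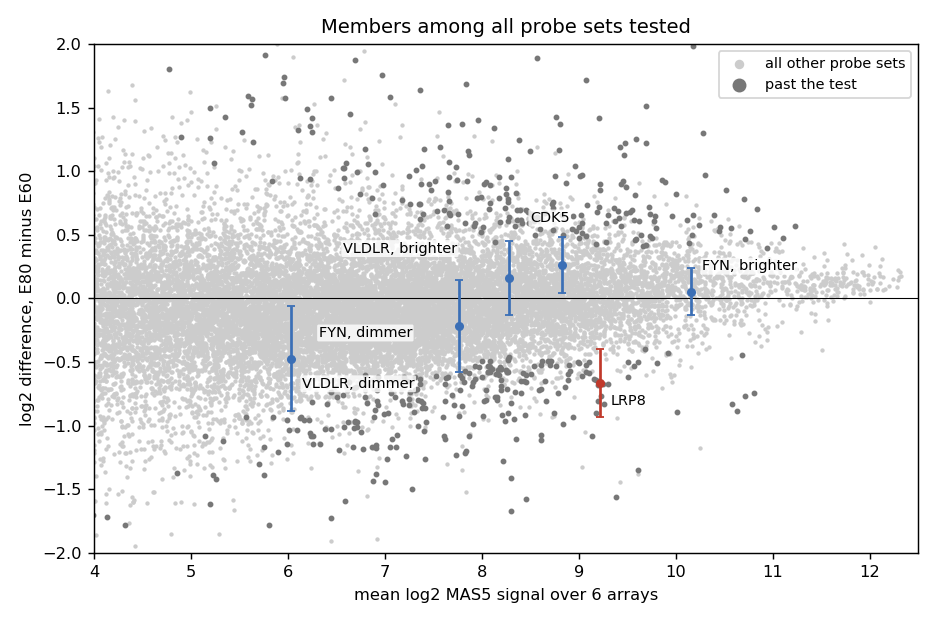
Log2 difference (E80 minus E60) against mean log2 MAS5 signal over 6 arrays for the probe sets tested, light grey for those that did not pass and dark grey for those that passed, with the members as coloured points (red passed, blue did not) and 95% intervals from limma. LRP8 at -0.67 lies among the probe sets that fell, and the other 5 members lie within the cloud of probe sets that did not pass; 6409 probe sets lie outside the axes, most of them dim.

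Both receptors were compared within each array, which removes the scale factor of the array. The log2 signal of VLDLR (brighter probe set) minus that of LRP8 was -1.35 ± 0.10 (SD, n = 3) at E60 and -0.52 ± 0.14 (SD, n = 3) at E80. The ratio of VLDLR to LRP8 was therefore 1.78-fold higher at E80, with no overlap between the days (-1.45 to -1.26 against -0.68 to -0.42; exact two-sided permutation test, p = 0.1, adjusted 0.1 over 2 such comparisons). No smaller p is possible with 3 arrays per day. The log2 difference was 0.78 to 0.91 when single arrays were left out and 0.51 when the mean of both VLDLR probe sets was used. The level of one probe set cannot be set against another, and the comparison concerns the change of these probe sets only. The dimmer VLDLR probe set, which was not compared with LRP8 on its own, differed by -0.48, in the direction of LRP8 (-0.67). An unequal change of the 2 receptors was therefore not established.

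FYN, the tyrosine kinase that phosphorylates Dab1, was the steadiest member on its brighter probe set. The signals were 1104, 1099 and 1160 at E60 and 1228, 1114 and 1144 at E80. The highest and lowest of the 6 differed 1.12-fold, and only 1.28% of the probe sets brighter than the median had a smaller range. The mean was 1121 ± 33.5 (SD, n = 3) at E60 and 1162 ± 58.9 (SD, n = 3) at E80, a log2 difference of 0.05 with a 95% interval of -0.13 to 0.23 (adjusted p = 0.789 from limma). Its sign turned with quantile normalization (-0.059), and no direction is given.

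The dimmer FYN probe set had signals of 229, 202 and 281 at E60 and 181, 193 and 236 at E80. The days overlapped widely, with arrays 3 and 6 the highest of their days. The mean was 237 ± 40.4 (SD, n = 3) at E60 and 203 ± 28.7 (SD, n = 3) at E80, a log2 difference of -0.22 with a 95% interval of -0.58 to 0.14 (adjusted p = 0.518 from limma). The gap between both FYN probe sets differed by 0.27 between the days on the log2 scale, and the days overlapped (exact two-sided permutation test, p = 0.2, adjusted 0.2).

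CDK5 was 1.20-fold higher at E80 without passing the test. Its signals were 424, 396 and 428 at E60 and 547, 479 and 471 at E80. All arrays of E80 lay above all of E60, and array 4 was the highest. The mean was 416 ± 17.7 (SD, n = 3) at E60 and 499 ± 41.8 (SD, n = 3) at E80, a log2 difference of 0.26 with a standard error of 0.10 and a 95% interval of 0.04 to 0.48 (unadjusted p = 0.0265, adjusted p = 0.206 from limma). The difference was above 0 in each of 13 alternative settings, from 0.19 to 0.38, and passed in none of them. Markers of neurons moved with it. Over the 6 measured of 10 listed genes the median log2 difference was 0.26, the summed signal was 12309 to 13412 at E60 and 14896 to 15493 at E80, and all 6 were higher at E80 on their brightest probe sets, of which only that of SNAP25 passed. A second, dimmer probe set of SYT1, a calcium sensor of synaptic vesicles, passed as well (log2 change 0.45, adjusted p = 0.0479 from limma). Their part in the difference of CDK5 was not tested.

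The kinases were also compared within each array. The log2 signal of FYN (brighter probe set) minus that of CDK5 was 1.43 ± 0.05 (SD, n = 3) at E60 and 1.22 ± 0.06 (SD, n = 3) at E80, a difference of -0.21 without overlap (1.38 to 1.47 against 1.17 to 1.28; exact two-sided permutation test, p = 0.1, the smallest possible here, adjusted 0.1). The sign was the same in the 9 alternative settings run, from -0.34 to -0.18.

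The probe sets most like each member were taken from 6088 or 6089 probe sets with 1 symbol and a mean level above the median, by the root mean square distance between the 6 log2 signals, each centred on its own mean. All were measured on the same 6 arrays and share their scale factors, and the list describes likeness only. The closest to LRP8 was MGAT5, a Golgi glycosyltransferase that branches N-glycans, at a distance of 0.07 log2 units, where the profile of LRP8 itself spread by 0.36 around its mean. MGAT5 fell from 765 to 481 (log2 change -0.67 ± 0.09 as standard error, limma adjusted p = 0.0176; it missed the threshold without array 1, 2 or 4, at adjusted p of 0.0788 to 0.10). ING4, a chromatin reader, ZCCHC11, a uridyl transferase, NIPBL, the loader of cohesin, and LOC100152407 followed, at distances of 0.07 to 0.09 and log2 differences of -0.53 to -0.80.

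The closest to CDK5 was PAFAH1B1, which encodes LIS1, the dynein regulator whose loss causes lissencephaly in man. The distance was 0.03 log2 units, where CDK5 itself spread by 0.15, and the next probe set, of the ubiquitin-conjugating enzyme UBE2H, stood at 0.05. The signals of PAFAH1B1 on this probe set were 1314, 1206 and 1365 at E60 and 1721, 1500 and 1520 at E80, again with array 2 the lowest and array 4 the highest. Its log2 difference of 0.29 had a standard error of 0.09 (limma, adjusted p = 0.154), so that neither gene of this pair passed. The second PAFAH1B1 probe set differed by -0.03 (adjusted p = 0.903) and did not share the pattern. For VLDLR the closest was EIF2AK2 (distance 0.04, own spread 0.15) and for FYN it was PREP (distance 0.02, own spread 0.05).

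**Figure D3:**
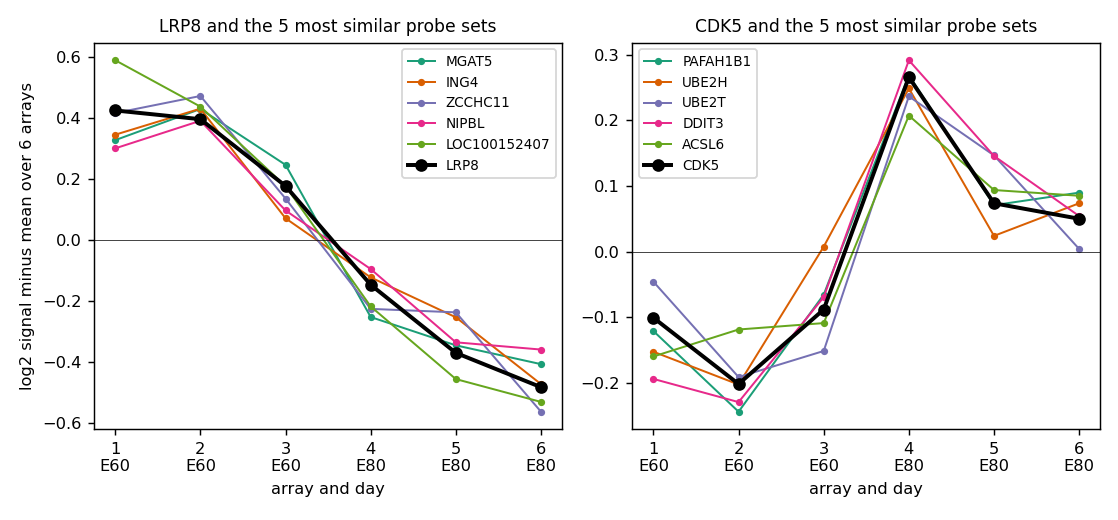
Log2 signal of each array minus the mean over the 6 arrays for LRP8 (left) and CDK5 (right) in black and for their 5 most similar probe sets in colour, with lines only to guide the eye. LRP8 and its neighbours step down from E60 (arrays 1 to 3) to E80 (arrays 4 to 6), while CDK5 and PAFAH1B1 are lowest on array 2 and highest on array 4.

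Around the members, 93 genes of the pathway were listed in 6 groups, and 38 of them had a probe set with only their symbol. The other 55, among them Reelin (RELN), DAB1, SRC, YES1, DCX and the Cdk5 activators CDK5R1 and CDK5R2, were not analysed here. By the brightest probe set per gene, 3 of the 38 had risen and 1 had fallen, or 10.5%, where 1.95% of all probe sets passed. The days did not overlap for 14 of the 38 (36.8%, where 23.6% of all probe sets did so), 6 higher and 8 lower at E80. The median log2 difference of the 38 was -0.03, beside -0.05 over all probe sets tested. The lists were written with results of these arrays known, APOE among them, and nothing particular to the pathway is drawn from these counts.

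Among extracellular ligands and regulators of the receptors 2 of 8 measured genes rose and 1 fell, where 0.933% of all probe sets rose and 1.01% fell. This list too was written with results known, and nothing is drawn from where the calls lie. Apolipoprotein E (APOE), a lipid carrier of astrocytes that binds both receptors, had signals of 542, 455 and 475 at E60 and 993, 1224 and 2234 at E80, with array 6 far above the others. It changed by 1.51 on the log2 scale with a standard error of 0.26 (limma, adjusted p = 0.0348), a call that was lost without array 1, 2, 3, 4 or 5 (1.46 to 1.76, adjusted p 0.0563 to 0.144) and held without array 6 (1.17, adjusted p = 0.0297). A second, dim APOE probe set overlapped between the days and did not pass (0.62, limma adjusted p = 0.368). Clusterin (CLU), another ligand of both receptors, rose by 0.57 on the log2 scale (limma, adjusted p = 0.0459), with a mean of 1973 ± 124 (SD, n = 3) at E60 and 2933 ± 386 (SD, n = 3) at E80. The astrocyte marker GFAP also rose, with signals of 179 to 210 at E60 and 456 to 1258 at E80. It was the only 1 of the 6 measured astrocyte markers that passed. By their brightest probe sets 5 of the 6 were higher at E80 and 1 lower. Of them 3 were higher without overlap, where 9.25% of all probe sets were so. The part of astrocytes in the rise of APOE and CLU was not tested.

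Thrombospondin 1 (THBS1), a matrix protein known to bind ApoER2 and VLDLR, fell. Its signals were 130, 127 and 140 at E60 and 85.8, 77.8 and 81.0 at E80, without overlap, and they differed by -0.70 on the log2 scale with a standard error of 0.13 (limma, adjusted p = 0.0386). A second THBS1 probe set fell by 1.04 on the log2 scale (adjusted p = 0.0364), and the other 3 are dim and did not pass. The calls of the leading THBS1 probe set and of CLU were mostly lost when single arrays were left out, where fewer of all probe sets passed (1 to 367, against 467). That of THBS1 was lost without any single array (-0.66 to -0.73, adjusted p 0.0690 to 0.146), and that of CLU without array 1, 2, 3, 4 or 6 (0.46 to 0.60, adjusted p 0.0852 to 0.143). Both were also lost with quantile normalization, where 483 of all probe sets passed (limma adjusted p = 0.0645 for THBS1 and 0.104 for CLU). Without the intensity trend neither passed. THBS1 was lost with common medians too (limma adjusted p = 0.0783), and CLU with 32 added to each signal (limma adjusted p = 0.0541). SNX17, which recycles lipoprotein receptors from endosomes, differed by -0.27 (adjusted p = 0.367), MYLIP, the ubiquitin ligase that degrades VLDLR and ApoER2, by 0.16 (adjusted p = 0.676), and the chaperone LRPAP1 by 0.09 (adjusted p = 0.682). A second SNX17 probe set of similar level differed by 0.008 (adjusted p = 0.979 from limma).

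None of the 3 measured relatives in the LDL receptor family passed the test. LRP6, the Wnt co-receptor, had signals of 173 to 200 at E60 and 151 to 161 at E80 without overlap, a log2 difference of -0.24 with a 95% interval of -0.49 to 0.02 (adjusted p = 0.306 from limma). A dimmer probe set of LRP6 differed by -0.40, also without overlap (adjusted p = 0.196 from limma). LRP10 had a log2 difference of -0.08 (adjusted p = 0.873), a sign that turned in some settings. The endocytic receptor LRP2 was dim, at 10.2 to 25.3, with a log2 difference of 0.54 (adjusted p = 0.465).

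Of the 14 measured genes listed for Dab1 and the signalling below it, none passed. By their mean log2 signal 11 were lower and 3 higher at E80, where 55.7% of all probe sets were lower. The days did not overlap for 4 lower and 1 higher, where 14.4% and 9.25% of all probe sets were so. The median log2 difference was -0.14, beside -0.05 over all probe sets, and a common decline of the group was not tested. Integrin beta 1 (ITGB1), an adhesion receptor that Reelin signalling activates, had signals of 628 to 651 at E60 and 483 to 524 at E80, a log2 difference of -0.35 (adjusted p = 0.0737 from limma). The days were far apart beside their spread. Of 13 alternative settings ITGB1 passed only with array weights (adjusted p = 0.0405), where more of all probe sets passed. Its adjusted p from limma was 0.243 with array medians set to a common value and 0.241 without the intensity trend. CRKL, an adaptor that binds phosphorylated Dab1, had signals of 541 to 585 at E60 and 431 to 475 at E80, a log2 difference of -0.30 (adjusted p = 0.124), while its sister CRK overlapped between the days (-0.07, adjusted p = 0.775). SOCS6, which belongs to the machinery that removes active Dab1, differed by -0.43 (adjusted p = 0.226), while RNF7, the RING subunit of the same ligase, differed by 0.25 in the other direction (adjusted p = 0.151), both without overlap. A dimmer probe set of SOCS6 overlapped between the days (-0.17, adjusted p = 0.717 from limma).

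Among Src family kinases and their regulators, 3 of 14 were measured beside FYN and none passed. The phosphatase PTPRA, which activates Fyn, had a log2 difference of 0.17 (adjusted p = 0.608 from limma), and LYN and LCK, best known from blood cells, were dim, at 24.8 to 43.2 and 3.67 to 12.3. Of 5 measured activators and partners of Cdk5 none passed either. The calpain subunit CAPNS1, part of the protease that cuts p35 to p25, had signals of 439 to 664 at E60 and 672 to 807 at E80 (log2 difference 0.44, adjusted p = 0.186), with its catalytic partner CAPN1 at 0.19 (adjusted p = 0.597). A second, dimmer CAPNS1 probe set differed by -0.35 (adjusted p = 0.504 from limma). The Cdk5 binding proteins CDK5RAP1 and CDK5RAP3 stood close to 0 on their brightest probe sets, at 0.06 (adjusted p = 0.873) for the first and -0.03 (adjusted p = 0.940) for the other, and the sign of both turned in some settings. A dimmer probe set of CDK5RAP3 differed by -0.36 (adjusted p = 0.456 from limma) and overlapped between the days.

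Of 5 measured substrates of Cdk5, 1 rose, where 0.933% of all probe sets rose. This list too was written with results known, and nothing is drawn from the count. Synapsin 1 (SYN1), a protein of synaptic vesicles, had signals of 245, 202 and 233 at E60 and 485, 335 and 515 at E80, up by 0.95 on the log2 scale with a standard error of 0.17 (limma, adjusted p = 0.0378), a call that was lost without array 1, 2, 3, 4 or 6 (0.84 to 1.01, adjusted p 0.0693 to 0.150). NDEL1, the LIS1 partner, had signals of 470 to 543 at E60 and 627 to 689 at E80, a log2 difference of 0.41 (adjusted p = 0.0676 from limma). It passed with array weights (adjusted p = 0.0455) and among the brightest 66% of probe sets (adjusted p = 0.0487), settings in which more of all probe sets passed. In the other 11 settings NDEL1 did not pass, with an adjusted p of 0.225 without the intensity trend. The cell cycle inhibitor CDKN1B differed by -0.28 (adjusted p = 0.184) without overlap, and MAP1B, a microtubule protein of growing axons, by -0.56 (adjusted p = 0.473) with wide overlap.

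**Figure D4:**
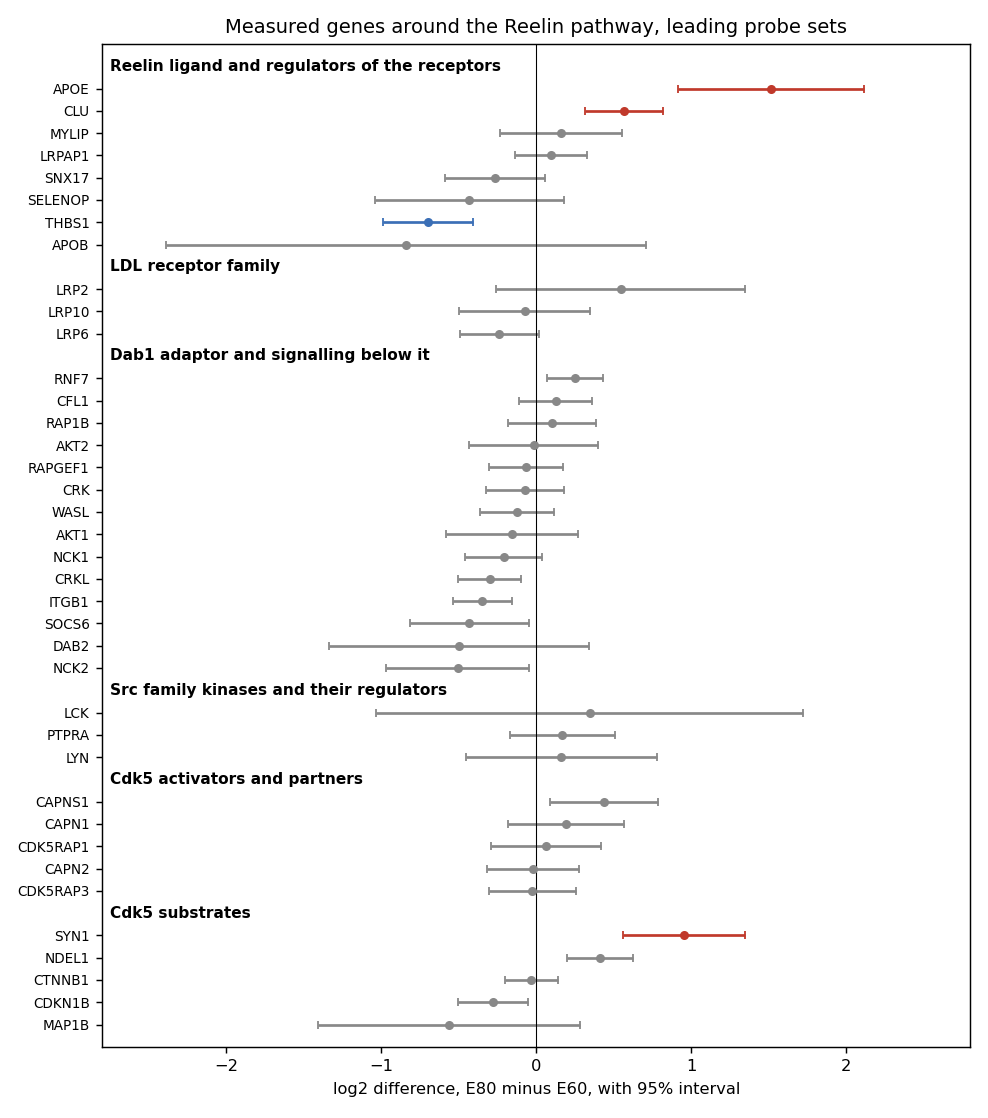
Log2 difference (E80 minus E60) with its 95% interval from limma for the leading probe set of each of the 38 measured pathway genes, grouped by role, red for those that rose, blue for those that fell and grey for those that did not pass. APOE, CLU and SYN1 rose and THBS1 fell. In the Dab1 group 11 of 14 points lie left of 0, where 55.7% of all probe sets tested were lower at E80.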

How the data were processed

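Each deposited value is a MAS5 signal intensity, for which the authors' software summarised perfect-match and mismatch probes and scaled every array by 1 factor. Its version is not given in the sources used here. Present calls were summarised by the study for whole arrays and were not used, and its threshold of 3-fold, applied to these values, was run as an alternative. Signals were log2 transformed with no pseudocount, 124 control probe sets were left out, and names came from the platform annotation (10069 probe sets with 1 symbol, 198 with several, 13732 with none). E80 was compared with E60 by limma (version 3.58.1, R 4.3.3; lmFit without covariates, then eBayes with trend set to the mean signal), with Benjamini-Hochberg adjustment over 23999 probe sets, since the methods name no test. The leading probe set of a gene is the one with the highest mean log2 signal.

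Named were all member probe sets and a few fixed genes such as RELN and DAB1. Of each pathway list, the genes past the test and the 4 with the smallest adjusted p were named. The 5 nearest profiles were found for each member. The text names all 5 for LRP8, the closest 2 for CDK5 and the closest 1 for VLDLR and for FYN. MYLIP, LRPAP1, CRK, GFAP, SNAP25, SYT1, VIM and TTR were named after their values were seen. Members and lists were chosen with earlier results of these data known. The marker lists described at length were those of neurons, radial glia, fibroblasts and meninges, endothelium, choroid plexus and astrocytes. Those of Cajal-Retzius cells, interneurons, oligodendrocytes, microglia, erythroid cells and striatum were also measured and are given by their median only. Marker genes were named where they moved with a member, so that this choice followed their values.

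The limma step was tested on simulated data. Replicates come from separate embryos. Array signals have no counting depth. No genome was used, so no coordinates or sequences are given.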

Additional observations from a re-analysis of the deposited data

How the results depend on the processing

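The count of members past the test, 1 as reported, was 0 with array medians set to a common value, without the intensity trend and by the rule of a fold of at least 3 without overlap, and 0 to 1 when single arrays were left out; where limma gave 0, 2 to 3 members stayed under an unadjusted p of 0.05. The log2 change of LRP8 was -0.55 with common medians, -0.67 without the trend (both past no threshold) and -0.76 to -0.59 without single arrays. The sign of the brighter FYN probe set turned with quantile normalization (-0.059) and with the mean of both probe sets (-0.084), and that of VLDLR with the mean of both (-0.16). No other member setting turned a sign. The count of pathway genes past the test, 4 as reported, was 2 with quantile normalization, 0 without the trend (8 at an unadjusted p under 0.05), 0 by the 3-fold rule and 0 to 3 without single arrays. Over all probe sets 467 passed, 763 among the brightest 66%, 1169 with array weights, 0 without the trend (3706 unadjusted), 291 by the 3-fold rule and 1 to 367 without single arrays, with 1 left without array 1, 2 or 4. With common medians 311 rose and 108 fell, against 224 and 243 as reported. Signs near 0 turned for CDK5RAP3 (0.071 with quantile normalization, 0.089 with common medians, -0.082 to 0.020 without single arrays), LRP10 (0.020 and 0.039 in the same settings, -0.21 to 0.079), CDK5RAP1 (-0.017 with array weights, -0.024 to 0.14 without single arrays) and LYN (-0.043 to 0.36 without single arrays). The causes were not tested. No paired analysis was possible because the labels give the days no shared replicate numbers. Signals of dim probe sets spread more between arrays of a day (median SD 0.49 on the log2 scale below the median level, 0.17 above it), and all 6 member probe sets lie above the median level.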
